A study of Mus musculus with 8 samples.

Results

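miR-208a, miR-208b and miR-499 are small RNAs cut from introns of myosin heavy chain genes. They were taken here as every entry named mir-208a or mir-208b, or whose name starts with mir-499, in the 8 deposited tables. The tables list 764 hairpin entries from 3 species (mouse, human and rat), and 8 of these met the rule: mouse and rat mir-208a, mouse and rat mir-208b, mouse and rat mir-499, and human mir-499a and mir-499b. After entries of the same name and arm had been summed, the 8 gave 7 of 685 miRNAs. Whole hearts came from 4 female and 4 male mice, all C57Bl6/J wild type, 4 to 6 weeks old and given as adult, and no treatment is named. Each heart was extracted alone and gave 1 library of RNA shorter than 200 nt. Since each library is a separate animal, the spread within a sex holds the variation between animals. It also holds that of extraction and library preparation, which 1 library per heart cannot separate from it.

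A myosin heavy chain is the motor protein of the muscle filament. In the mouse heart Myh6 encodes the fast alpha chain that dominates after birth, Myh7 the slow beta chain of the fetal ventricle and of slow skeletal muscle, and Myh7b a further slow type chain. Each of the 3 genes carries a miRNA in an intron on its own strand, and these miRNAs are known as myomiRs. In mice, miR-208a is known to be required for the rise of beta chain under cardiac stress and to act upstream of miR-499.

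Mir208a lies at chr14:54949060-54949142 on the minus strand (GRCm38), in intron 29 of a GENCODE transcript of Myh6 with 38 introns. Mir208b lies 26557 bases away at chr14:54975700-54975776 on the same strand, in intron 31 of a Myh7 transcript with 40. Mir499 lies at chr2:155622880-155622958 on the plus strand, in intron 19 of a Myh7b transcript with 41. The RefSeq hairpins of that build are shown because the tables split each entry by its arms, with both mature arms in capitals.
Mir208a hairpin: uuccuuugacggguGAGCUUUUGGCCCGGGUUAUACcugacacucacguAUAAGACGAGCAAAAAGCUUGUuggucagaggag
Mir208b hairpin: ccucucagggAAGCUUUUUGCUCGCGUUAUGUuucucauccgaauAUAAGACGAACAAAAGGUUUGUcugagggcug
Mir499 hairpin: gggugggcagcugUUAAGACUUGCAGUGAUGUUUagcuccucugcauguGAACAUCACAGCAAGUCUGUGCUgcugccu

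The arms that held most reads came from opposite sides of their hairpins, the 3′ arm in miR-208a and miR-208b and the 5′ arm in miR-499. Their mature sequences are shown to compare the seeds, bases 2 to 8 counted from the 5′ end, which are in capitals.
miR-208a-3p: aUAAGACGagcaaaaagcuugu
miR-208b-3p: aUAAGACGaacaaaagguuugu
miR-499-5p: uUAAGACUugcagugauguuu

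miR-208a-3p and miR-208b-3p share the whole seed, and among 1679 mature miRNAs of the RefSeq table no other has it. They are identical at 19 of 22 positions, with the substitutions G10A, A16G and C18U from miR-208a-3p to miR-208b-3p. Bases 2 to 7 of miR-499-5p are the same as in both, and base 8 differs (G8U). Over the 21 positions of miR-499-5p, 12 are identical to miR-208a-3p. All 3 sequences are rich in A and U, with 36.4% G and C in miR-208a-3p, 31.8% in miR-208b-3p and 33.3% in miR-499-5p, against a median of 47.6% among the miRNAs compared further on.

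Reads on mature arms ran from 29169537 to 37791810 per library, and every read counted on a member's arms was unique to 1 entry. Levels are CPM, read counts scaled to a common mature read total and by edgeR's TMM factors. The mature arms are 21 or 22 nt long, but capture into a library is known to depend on sequence and was not measured here, so orders and ratios between miRNAs are those of reads. The factor was 1.41 in female replicate 3 and 0.846 to 1.06 in the other 7 libraries. As a description, a list of muscle miRNAs (miR-1a-3p, miR-1b-5p, miR-133, miR-206 and the members) was summed. Without another tissue beside it, the sum cannot test the heart label. The sum ran from 167925 to 382214 CPM in female and 257309 to 378651 CPM in male hearts. Nearly all of it was the miR-1b-5p entry.

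miR-499-5p had by far the most reads of the members. It had 3922, 7673, 4882 and 4335 CPM in female replicates 1 to 4, against 2860, 4969, 4597 and 5752 CPM in male replicates 1 to 4. Female replicate 2 was the highest of all and male replicate 1 the lowest, with the other hearts of both sexes between them. With a mean of 4874 CPM over the 8 hearts it ranked 30 among 564 miRNAs that passed the filter on low counts. The counts behind these values were 81878 to 306495 per library, and 46.7% to 54.9% of them matched the mature sequence exactly.

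miR-208a-3p had 159, 501, 348 and 192 CPM in female replicates 1 to 4, against 184, 346, 261 and 288 CPM in male replicates 1 to 4. Female hearts held both the highest value, in replicate 2, and the lowest, in replicate 1, so the male range lay within the female range. It ranked 97 of 564, from 4063 to 20030 counts per library.

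miR-208b-3p, from the host gene that adult mouse ventricle is known to use little, was scarce in comparison. It had 7.37, 12.8, 14.1 and 7.16 CPM in female replicates 1 to 4, against 8.10, 8.67, 8.61 and 12.3 CPM in male replicates 1 to 4. Female replicates 2 and 3 and male replicate 4 formed an upper group, and the remaining 5 hearts lay between 7.16 and 8.67 CPM. These values rest on 188 to 605 counts per library, and it ranked 284 of 564.

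The 5′ arm of mir-208a was the only minor arm with reads on the mouse entry. miR-208a-5p had 6.24, 2.33, 4.37 and 3.08 CPM in female replicates 1 to 4, against 5.20, 3.43, 2.26 and 2.41 CPM in male replicates 1 to 4, from 68 to 187 counts per library. Replicate 1 was the highest of its sex in both groups, unlike for miR-208a-3p, where replicate 1 was the lowest of both.

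**Figure D1:**
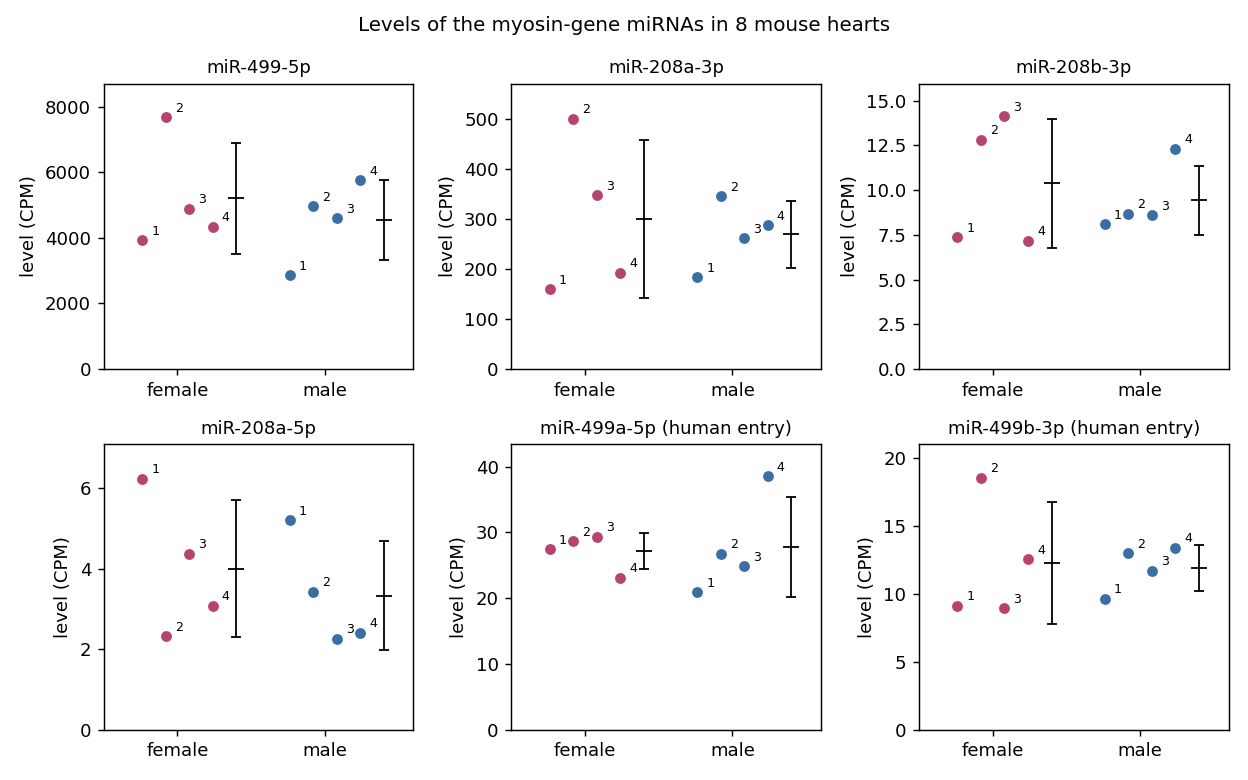
Levels in CPM (linear axes from 0) of the 6 member miRNAs that passed the filter on low counts, for 4 female and 4 male hearts, with each point 1 heart labelled by its replicate number and black bars the mean ± SD. The sexes overlap in every panel, and female replicate 2 is highest for miR-499-5p (7673 CPM) and miR-208a-3p (501 CPM) but next to lowest for miR-208a-5p (2.33 CPM).

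The next question was what the other entries held. No read was listed on the 5′ arm of mir-208b in any library, in either species. The mouse mir-499 entry had 0 reads on a 3′ arm in all libraries, although RefSeq lists miR-499-3p on that hairpin. Its reads outside the 5′ arm were listed as other reads, 31290 over the 8 libraries, or 1.75% to 3.23% of the entry's reads per library, and 25161 of them were listed as exact. Where on the hairpin they lie is not given, so the level of mouse miR-499-3p could not be read from the tables. The rat mir-499 entry listed 31 reads on its 3′ arm in female replicate 2 and 15 in male replicate 2, and 0 in the other libraries. All 46 were exact matches. The lowest value listed for reads unique to an entry is 10, and how reads were filtered is not stated. A 0 in these tables was therefore not read as absence.

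Human entries took a small number of reads. The 5′ arm of mir-499a had 27.5, 28.6, 29.4 and 23.1 CPM in female replicates 1 to 4, against 20.9, 26.8, 24.9 and 38.5 CPM in male replicates 1 to 4. The 3′ arm of mir-499b had 9.14, 18.6, 8.95 and 12.6 CPM in female replicates 1 to 4, against 9.64, 13.0, 11.7 and 13.4 CPM in male replicates 1 to 4. Neither held a read that matched its mature sequence exactly, of 7246 reads on mir-499a and 3239 on mir-499b over the 8 libraries. Per 1000 reads of miR-499-5p, mir-499a averaged 5.52 ± 1.38 over 4 female hearts and 6.20 ± 0.963 over 4 male hearts (SD). The same rate for mir-499b was 2.37 ± 0.438 in the female and 2.72 ± 0.452 in the male group.

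The rat entries carried a larger part of the miR-208 reads. Of miR-208a-3p counts, the rat entry held 33.1%, 14.9%, 21.3% and 26.0% in female replicates 1 to 4, against 28.8%, 21.1%, 21.9% and 31.1% in male replicates 1 to 4. The widest of their 95% Clopper-Pearson intervals, in female replicate 1, ran from 31.7% to 34.6%. Of miR-208b-3p counts, the rat share averaged 42.2% ± 6.23 over 4 female hearts and 40.4% ± 7.58 over 4 male hearts (SD), and 0 of its 1104 reads were exact matches. Exact matches were 39.5% of reads on the mouse mir-208a 3′ arm, 22.4% on the rat one and 24.7% on the mouse mir-208b 3′ arm, over all libraries. The rat share of miR-208a-3p was lower in hearts where miR-208a-3p was higher (Pearson r = -0.84, exact permutation p = 0.0108, Spearman rho = -0.83, exact permutation p = 0.0154, 8 hearts, 1 relation reported, not adjusted, chosen after the values were seen). Share and level hold the same reads. Without female replicates 1 and 2, the hearts farthest from the median level, r was -0.54 (exact permutation p = 0.265), so the relation rests on those hearts. The rat share of miR-208b-3p was also correlated with that of miR-208a-3p, and that result is not given here. Intervals cover counting error only, since the tables hold reads and not molecules.

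Arm use of mir-208a was compared next, because a ratio within a hairpin does not depend on depth or scaling. The arms do differ in base composition, with 54.5% G and C in miR-208a-5p and 36.4% in miR-208a-3p. The 5′ arm held 3.77%, 0.462%, 1.24% and 1.57% of miR-208a reads on either arm in female replicates 1 to 4, against 2.75%, 0.983%, 0.858% and 0.8300% in male replicates 1 to 4. Its 95% Clopper-Pearson interval was 3.21% to 4.38% in female replicate 1 and 0.373% to 0.566% in female replicate 2, which do not overlap. Replicate 1 of each sex stood above the other 3 hearts of that sex. On the log2 scale the ratio of 5′ to 3′ counts (pseudocount 0.5) averaged -6.17 ± 1.26 over 4 female hearts and -6.38 ± 0.833 over 4 male hearts (SD). The sexes thus differed by 0.21 (SE 0.68), with an adjusted p of 0.917 from limma. Of 115 hairpins with a mean of at least 10 counts on each arm, 0 were called (0%), and 4 had an unadjusted limma p under 0.05. The difference was -0.29 (SE 0.60) without female replicate 1. Across the 8 hearts the SD of the log2 ratio was 1.00 for miR-208a, against a median of 0.53 over the 115 hairpins, and 17 of them had a larger SD.

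**Figure D2:**
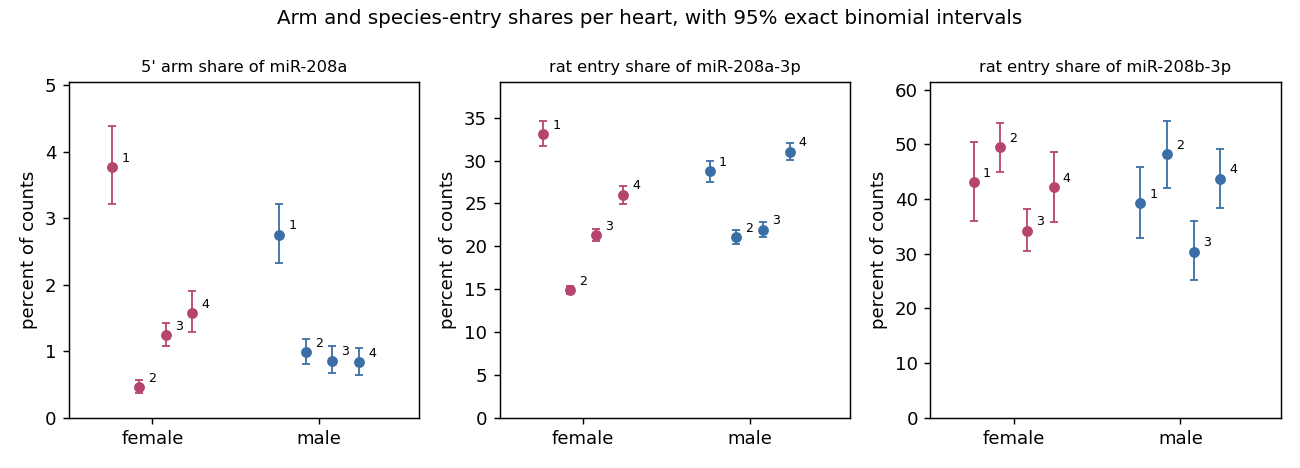
Percent of counts per heart (linear axes from 0) for the 5′ arm of miR-208a, the rat entry of miR-208a-3p and the rat entry of miR-208b-3p, with each point 1 heart labelled by its replicate number and error bars the 95% exact binomial interval. The 5′ arm share is highest in replicate 1 of both sexes (3.77% in female, 2.75% in male) and lowest in female replicate 2 (0.462%).

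Female and male hearts were then compared for each miRNA, which is the comparison the groups imply. Of 564 miRNAs tested with edgeR's quasi-likelihood test, 0 passed an adjusted p of 0.05 (0%), 28 had an unadjusted p under 0.05 (4.96%), DESeq2 called 3 and limma-voom 0. The rat miR-499-3p did not pass the filter on low counts, and of the 6 member miRNAs that did, 0 were called by edgeR, with adjusted p from 0.927 to 0.983. The log2 fold change, female minus male, was 0.20 (SE 0.27) for miR-499-5p, 0.16 (SE 0.34) for miR-208a-3p, 0.14 (SE 0.27) for miR-208b-3p and 0.26 (SE 0.36) for miR-208a-5p. For human entries it was -0.03 (SE 0.22) on mir-499a and 0.04 (SE 0.26) on mir-499b. In this main fit every one was smaller than its standard error. With library size alone, miR-499-5p (0.38, SE 0.31), miR-208b-3p (0.40, SE 0.35) and miR-208a-5p (0.46, SE 0.37) exceeded theirs. Those of miR-208a-3p and both human entries stayed smaller there, and none passed. The value of miR-208a-5p was 0.13 (SE 0.36) without female replicate 1, 0.45 (SE 0.36) without female replicate 2, 0.59 (SE 0.36) without male replicate 1 and 0.59 (SE 0.34) with exact matches only, none of which passed in edgeR. Female and male values overlapped for all 6, where they did not overlap for 2.84% of all miRNAs tested. The signs of miR-499-5p and miR-208a-3p turned without female replicate 2 (-0.05, SE 0.24, and -0.21, SE 0.31) and that of miR-208b-3p without female replicate 3 (-0.01, SE 0.28).

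Of the 9 muscle miRNAs listed, 8 were tested and 0 passed in either direction, with a positive fold change for 6 of them. The list's median was 0.12 on the log2 scale, where all 564 miRNAs had a median of -0.05. miR-133a-3p was not analysed here. Outside the members, miR-133b-3p, a miRNA of striated muscle, had the smallest adjusted p of the list, with 1.09 (SE 0.32, edgeR adjusted p = 0.476). The miR-1b-5p entry, which held nearly all of the list's reads, had -0.12 (SE 0.25), and the miR-1a-3p entry had 0.06 (SE 0.24). The miR-1-1-3p entry, outside the list and with far more reads than miR-1a-3p, had -0.16 (SE 0.20).

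The ratios among the 3 main arms asked whether the balance of the Myh6, Myh7 and Myh7b products differed by sex. miR-208a-3p reads outnumbered miR-208b-3p reads 21.6, 39.1, 24.6 and 26.9 to 1 in female replicates 1 to 4, against 22.7, 39.8, 30.4 and 23.3 to 1 in male replicates 1 to 4. Replicate 2 of each sex had the highest ratio and the other 6 hearts lay between 21.6 and 30.4. miR-499-5p reads outnumbered those of miR-208a-3p 24.6, 15.3, 14.0 and 22.5 to 1 in female replicates 1 to 4, against 15.5, 14.4, 17.6 and 20.0 to 1 in male replicates 1 to 4. Here female replicates 1 and 4 were highest, above every male heart, and female replicate 3 was lowest. Against miR-208b-3p, the ratio of miR-499-5p was 532, 599, 345 and 605 in female replicates 1 to 4, and 353, 573, 534 and 467 in male replicates 1 to 4.

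The differences in log2 ratio, female minus male, were smaller than their standard errors in all 3 pairs. For miR-208a-3p over miR-208b-3p the mean was 4.77 ± 0.369 over 4 female hearts and 4.82 ± 0.379 over 4 male hearts (SD), giving -0.05 (SE 0.26, two-sided exact permutation p = 0.83). For miR-499-5p over miR-208a-3p it was 4.22 ± 0.401 in the female and 4.07 ± 0.209 in the male group, giving 0.15 (SE 0.23, exact permutation p = 0.571). For miR-499-5p over miR-208b-3p it was 8.99 ± 0.38 in the female and 8.89 ± 0.309 in the male group, giving 0.10 (SE 0.24, exact permutation p = 0.600). Adjusted over the 3 ratios each p was 0.83, and 4 hearts against 4 cannot give a p below 0.0286. Over the 8 hearts the highest ratio was 1.84, 1.75 and 1.75 times the lowest in these pairs.

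**Figure D3:**
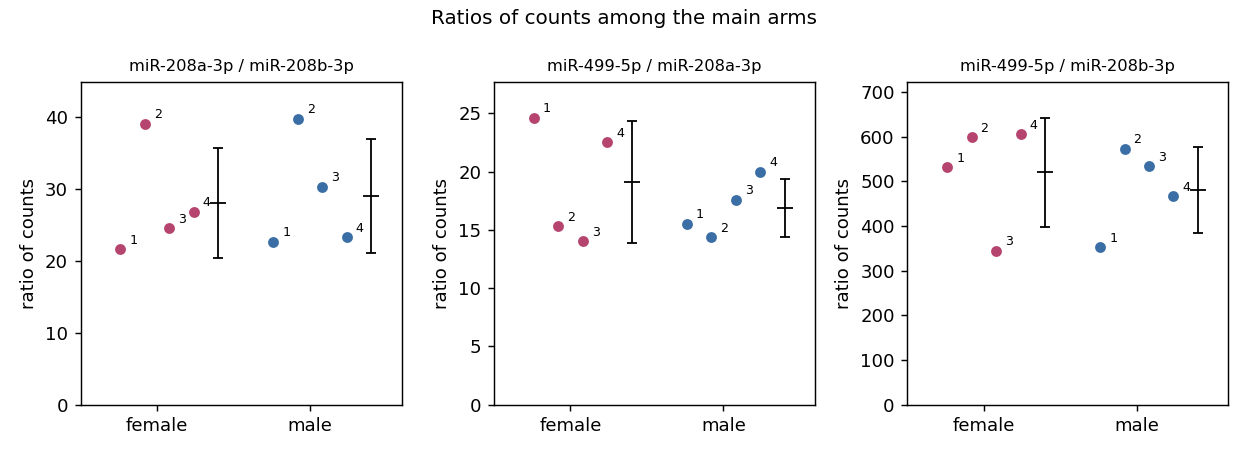
Ratios of read counts (linear axes from 0) for the 3 pairs of main arms in 4 female and 4 male hearts, with each point 1 heart labelled by its replicate number and black bars the mean ± SD. The sexes overlap in every pair, and the ratio of miR-208a-3p to miR-208b-3p is highest in replicate 2 of both sexes (39.1 in female, 39.8 in male).

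The levels of miR-208a-3p and miR-499-5p varied more between hearts than the ratios among the 3 main arms did, and that of miR-208b-3p only slightly more. A level also carries the error of its library's scaling, which cancels in a ratio. From the lowest to the highest heart, miR-208a-3p spanned 3.15-fold, miR-499-5p 2.68-fold and miR-208b-3p 1.97-fold. The SD of log2 CPM over the hearts was 0.56 for miR-208a-3p and 0.41 for miR-499-5p, against a median of 0.31 and 0.28 for 76 and 32 other miRNAs of levels within 3-fold. The 3 log2 ratios had SDs of 0.31 to 0.35 over the same hearts. For miR-208b-3p the SD of log2 CPM was 0.37, with a median of 0.37 for 154 others of like level. In whole hearts, fewer heart muscle cells and less of a miRNA per cell cannot be told apart.

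All 3 arms tended to be high in the same hearts. The p values below treat all hearts as independent, although same-numbered hearts had correlations of up to 0.46, as the closing section gives. In both sexes miR-208a-3p was lowest in replicate 1 and highest in replicate 2. miR-499-5p and miR-208a-3p had a Pearson r of 0.84 over the 8 hearts (exact permutation p = 0.00801, adjusted over the 3 pairs 0.0240) and a Spearman rho of 0.88 (exact permutation p = 0.00724, adjusted 0.0109). miR-208a-3p and miR-208b-3p had an r of 0.79 (exact permutation p = 0.0240, adjusted 0.0360) and a rho of 0.88 (exact permutation p = 0.00724, adjusted 0.0109). miR-499-5p and miR-208b-3p had an r of 0.67 (exact permutation p = 0.0603, adjusted 0.0603) and a rho of 0.76 (exact permutation p = 0.0368, adjusted 0.0368). Without the 2 hearts farthest from the median of the first named miRNA, r was 0.77 (exact permutation p = 0.0750), 0.695 (p = 0.118) and 0.73 (p = 0.101) in the same order, over 6 hearts. No pair passed over those 6, although r stayed of similar size on fewer hearts. The hearts left out were female replicate 2 in all 3 pairs, with female replicate 1 for the second pair and male replicate 1 for the others. With each sex centred on its own mean, r was 0.86 (exact permutation p = 0.00727), 0.79 (p = 0.0217) and 0.66 (p = 0.0753). With 1 heart left out, the first pair did not pass without female replicate 2 (r = 0.71, exact permutation p = 0.0562), and the second did not without female replicate 1, 2 or 4 or male replicate 3 (r = 0.74 to 0.797). The third passed without female replicate 3 (r = 0.79, exact permutation p = 0.0274). The second pair had an r of 0.67 with mouse entries only and 0.62 with exact matches only (exact permutation p = 0.0693 and 0.0971).

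**Figure D4:**
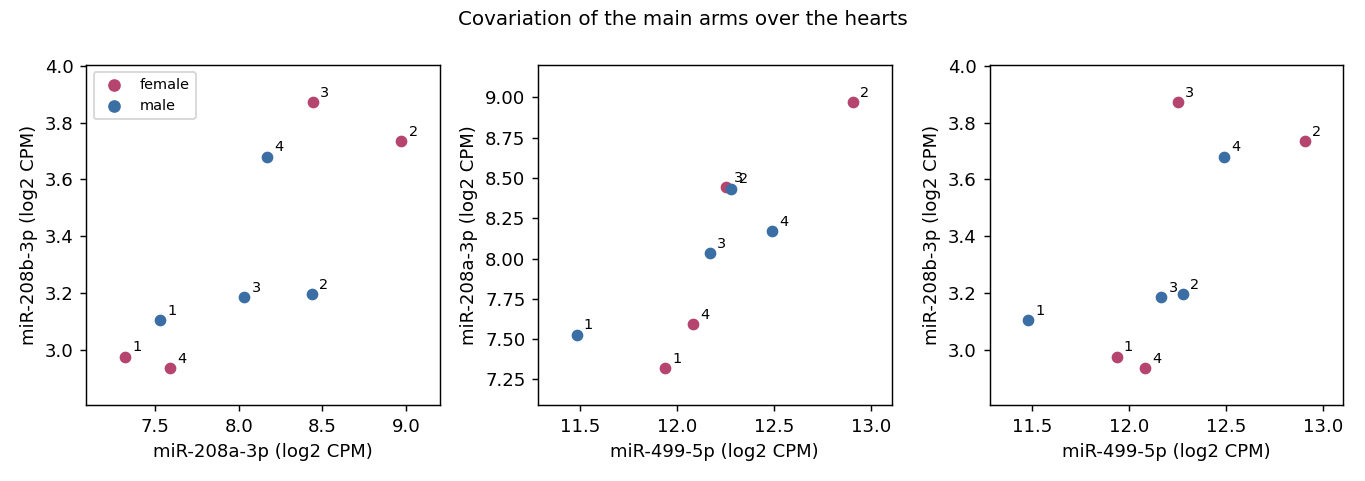
Log2 CPM of the 3 pairs of main arms, with each point 1 heart labelled by its replicate number and coloured by sex. The hearts of both sexes lie along 1 rising band for miR-499-5p and miR-208a-3p (r = 0.84), with female replicate 2 at its upper end.

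The minor arm did not follow. miR-208a-5p had an r of -0.60 with miR-208a-3p from the same hairpin (exact permutation p = 0.120, adjusted over 12 other pairs of members 0.206, rho = -0.50, exact permutation p = 0.216, adjusted 0.371), or -0.18 without the 2 hearts farthest from the median of miR-208a-3p. With miR-499-5p it had an r of -0.71 (exact permutation p = 0.0431, adjusted 0.155, rho = -0.62, exact permutation p = 0.115, adjusted 0.276), or -0.43 without 2 hearts. None of these 12 pairs passed after adjustment.

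Measures of the library were set beside these levels. Over 8 relations of miR-499-5p, miR-208a-3p, miR-208b-3p and miR-208a-5p with the mature read total and the TMM factor, r ran from -0.56 to 0.57 and rho from -0.50 to 0.74 over the 8 hearts, with a lowest adjusted exact permutation p of 0.413 for r and 0.367 for rho. Without the 2 most extreme hearts r ran from -0.89, for miR-208a-3p and the read total, to 0.58. A split by base composition, chosen after the values were seen, also varied between hearts. The median log2 CPM of 75 miRNAs with under 40% G and C, less that of 181 with at least 50%, was 0.00, 0.76, -0.47 and 0.21 in female replicates 1 to 4 and 0.03, 0.55, 0.48 and 0.29 in male replicates 1 to 4. It was highest in female replicate 2, where miR-499-5p and miR-208a-3p were highest, and lowest in female replicate 3, where both were above the median heart. Apart from female replicate 3, the hearts had the same order by this difference as by miR-208a-3p, except that male replicates 3 and 4 changed places. miR-208a-3p rose from 159 CPM in female replicate 1 to 501 CPM in female replicate 2. Between the same hearts the 5′ arm share of miR-208a fell from 3.77% to 0.462%. miR-499-5p departed from that order in more hearts. Across 198 of 236 miRNAs with a mouse entry, at least 10 CPM on average and a RefSeq sequence, the r with miR-208a-3p over the hearts had a median of 0.35 for 39 miRNAs with under 40% G and C and -0.26 for 85 with at least 50%. The same medians were 0.30 and -0.29 for miR-499-5p, and 0.04 and -0.11 for miR-208b-3p. The part of base composition in the covariation, and in the arm ratio of miR-208a, was not tested.

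The other cell types of the heart were set beside the members too. The summed level of fibroblast and stroma miRNAs (5 of 5 tested) ran from 2694 to 4864 CPM in female and from 2266 to 2662 CPM in male hearts, with its highest value, 4864 CPM, in female replicate 2. miR-199a-3p held most of that value (3653 CPM), while miR-214-3p of the same list was lowest in that heart (25.2 CPM). Of these 5 miRNAs, 3 had a positive fold change and 0 passed in either direction (smallest edgeR adjusted p = 0.806). Red cell miRNAs (3 of 3 tested) ran from 54.5 to 213 CPM in female and from 154 to 1174 CPM in male hearts, with the highest value in replicate 2 of each sex. Their median log2 fold change, female minus male, was -2.18. Of these 3 miRNAs, 0 had a positive fold change and 0 passed in either direction (smallest edgeR adjusted p = 0.476). Endothelial miRNAs (3 of 4 tested) ran from 54141 to 89470 CPM in female and 73450 to 125168 CPM in male hearts, smooth muscle miRNAs (4 of 4) from 46372 to 68264 CPM and 47936 to 61504 CPM in female and male hearts, and leukocyte miRNAs (5 of 5) from 272 to 291 CPM and 250.3 to 374 CPM. All tested miRNAs of these lists had reads in every heart, and miR-126b-3p was not among those tested. Their part in the spread of the members was not tested.

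The miRNAs whose pattern over the 8 hearts was most like each main arm were listed, as a description, from 236 with a mouse entry and a mean of at least 10 CPM. For miR-208a-3p they were miR-199a-5p (r = 0.89), miR-19a-3p (0.88), miR-32-5p (0.88), miR-19b-3p (0.82) and miR-142a-3p (0.797). miR-499-5p came next after the first 3 of these. For miR-208b-3p they were miR-133a-5p (0.86), miR-497a-5p (0.82), miR-874-3p (0.81), miR-19b-3p (0.74) and miR-181b-5p (0.74), with miR-208a-3p next after the first 3. miR-499-5p (0.67) was farther down for miR-208b-3p, at rank 12 of 238 with members counted. For miR-499-5p they were miR-26b-5p (0.88), let-7a-3p (0.84), let-7c-3p (0.82), miR-145a-3p (0.81) and miR-135a-5p (0.81), and miR-208a-3p was second only to miR-26b-5p. These r values are the highest of many over only 8 hearts, and all miRNAs share the libraries and their scaling. Over the same candidates the median r was -0.19 with miR-208a-3p, -0.10 with miR-208b-3p and -0.16 with miR-499-5p.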

How the data were processed

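Small RNA of 8 mouse hearts was sequenced, 1 library per heart. The deposited tables give whole read counts for each hairpin. Per the file headers, these counts are divided among the mature 5′ arm, the mature 3′ arm and other reads. The submitters' processing notes name STAR and mm10, with no role, and how reads were trimmed, counted and filtered is not stated there. Among the counts of reads unique to an entry, 0 values lay from 1 to 9 and 1382 from 10 to 19.

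Entries of 3 species with the same name and arm were summed, as were numbered copies with under 50% unique reads in the mouse entries (in the other species where mouse has no copies). Levels and tests used edgeR 4.0.16 (TMM, filterByExpr with a minimum count of 10 and total of 15, glmQLFit and glmQLFTest on sex, Benjamini-Hochberg over 564 miRNAs) under R 4.3.3. Standard errors are the fold change over the square root of F. Arm ratios used limma 3.58.1. Ratios of counts and correlations of log2 CPM, each with a pseudocount of 0.5, used exact permutation tests (SciPy 1.17.1). The edgeR and limma steps were tested on simulated data. DESeq2 1.42.0, limma-voom, other scalings, filters, units and leaving out each library were alternatives. Named miRNAs are all members, for each main arm the 5 miRNAs of highest r, and the list of muscle miRNAs. Listed miRNAs that were not tested are also named, as is the miR-1-1-3p entry, which no list holds. Members and lists were chosen with earlier results of these data known. Hearts were treated as unpaired, and the closing section gives how same-numbered hearts correlated. Sequences and hairpin positions are RefSeq's on GRCm38.p6, matched for all 3 hairpins, and introns are from GENCODE vM21.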

Additional observations from a re-analysis of the deposited data

Results flagged for a closer look

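Dixon's test for a value far from its group was run on 24 groups of 4 hearts (12 measures in either sex) and picked out 2 values. Chance alone gives about 1 in 20 groups. Male replicate 4 had 12.3 CPM of miR-208b-3p, against 8.10 to 8.67 CPM in the other male hearts. Male replicate 1 had a log2 ratio of 5′ to 3′ reads of miR-208a of -5.14, against -6.89 to -6.65 in the other male hearts.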

How the results depend on the processing

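The count of miRNAs past the threshold was 0 in edgeR with RLE factors, upper quartile factors, library size alone and unique reads, and with limma-voom. It was 1 with no filter, at least 10 CPM in 4 libraries, mouse entries only, exact matches only or the replicate block, 3 with DESeq2, and 0 to 2 when 1 library was left out (2 without female replicate 3). No member was among those called. Same-numbered hearts had correlations of 0.46, 0.33, 0.07 and 0.00 in their deviations from the group means, and 3 of 4 female hearts correlated best with their own number. The labels state no pairing, and the main tests treat the hearts as unpaired. Whether the numbers mark something shared by the hearts was not tested. With the block the log2 fold changes were 0.19 (SE 0.21) for miR-499-5p, 0.04 (SE 0.23) for miR-208a-3p and 0.10 (SE 0.28) for miR-208b-3p. The arm ratio of miR-208a differed by 0.21 (SE 0.40) with it. Correlations over the hearts were not run within replicate numbers.

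Leaving out 1 library in turn gave log2 fold changes of -0.053 to 0.42 for miR-499-5p, -0.21 to 0.48 for miR-208a-3p, -0.012 to 0.41 for miR-208b-3p, 0.13 to 0.59 for miR-208a-5p, -0.092 to 0.23 for the mir-499a entry and -0.22 to 0.27 for the mir-499b entry, and -0.29 to 0.73 for the arm ratio of miR-208a. The mir-499a value turned to 0.014 (RLE), 0.073 (upper quartile), 0.18 (library size), 0.053 (no filter), 0.0031 (at least 10 CPM), 0.015 (DESeq2), 0.0025 (limma-voom), 0.087 (unique reads) and 0.0016 (replicate block), and that of mir-499b to -0.0041 (limma-voom) and -0.011 (replicate block). The ratio of miR-208a-3p over miR-208b-3p turned to 0.027 with mouse entries only and ran from -0.22 to 0.11 when 1 library was left out. The ratio of miR-499-5p over miR-208b-3p then ran from -0.042 to 0.29 and that of miR-499-5p over miR-208a-3p from 0.01 to 0.28.

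For miR-499-5p and miR-208b-3p, r passed with library size alone (0.82) and with RLE factors (0.71). For miR-208a-3p and miR-208b-3p it did not pass with mouse entries only (0.67), exact matches only (0.62) or without 2 hearts (0.695), nor did miR-499-5p and miR-208a-3p without 2 hearts (0.77). Leaving out 1 library gave r of 0.71 to 0.87 for miR-499-5p and miR-208a-3p, not passing only without female replicate 2, 0.74 to 0.87 for miR-208a-3p and miR-208b-3p, not passing without female replicate 1, 2 or 4 or male replicate 3, and 0.56 to 0.79 for miR-499-5p and miR-208b-3p, passing only without female replicate 3. The cause was not tested. Under the minimum of 10 CPM miR-208b-3p gave no value. The lowest counts per library were 188 for miR-208b-3p and 68 for miR-208a-5p, and rat miR-499-3p, with 46 reads in all, was too low to test.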
